A study of Mus musculus with 4 samples.

Results

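Interferon-stimulated genes are genes switched on when a cell senses interferon, a cytokine released on infection or inflammation. A set of 38 such genes was followed here in mouse haematopoietic stem cells (HSCs), the self-renewing source of every blood lineage in bone marrow. The set was chosen by gene symbol, and all 38 matched a row of the authors' deposited table, among 34315 features. Cells were sorted from C57BL/6 bone marrow by dye efflux and by surface phenotype (SP-KSL-CD150+), polyA RNA was sequenced, and reads were counted per feature on mm9. The wild-type group has 4 libraries, which the labels call technical replicates of biological replicate 1. The design text of the series speaks of duplicates, so whether any of them come from separate animals cannot be told here. Differences between libraries are therefore not read as differences between animals. Against the wild-type libraries stands an arm labelled Dnmt3a-KO, cells without the de novo DNA methyltransferase Dnmt3a. That arm is known here only as the authors' mean count, log2 fold change and adjusted p. The means of that arm were placed on the scale of the wild-type normalised counts, and are called knockout means below. The sources used here do not state the animals' age, the Cre driver or any agent used to induce deletion.

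Type I interferons signal through the receptor chains Ifnar1 and Ifnar2 and the kinases Jak1 and Tyk2. These phosphorylate STAT proteins, among them Stat2, which joins Irf9 in a complex that binds an interferon-stimulated response element (ISRE). Interferon gamma, the type II interferon, signals through Ifngr1, Ifngr2, Jak1 and Jak2, and its target genes often carry a gamma-activated site (GAS). Interferon is known to bring dormant HSCs into the cell cycle, and stem cells are known to keep some of these genes on without infection.

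Upstream sequences were examined for 31 members that the RefSeq promoter table (GRCm38.p6) lists. The letters GAAANNGAAA, a core of the ISRE, occurred on either strand within 250 bases before to 50 bases after the start of 17 of the 31, or 54.8%, against 3.99% of 27025 genes in the table. The palindromic letters TTCNNNGAA, a core of the GAS, occurred in 9 of the 31, or 29.0%, against 9.55% of all genes. More than 1 ISRE match in a window was found for 7 members, or 22.6%, against 0.266% of all genes, and such matches often overlap by sharing a GAAA. Both letter strings stood in 1 window for 4 members, Bst2, Igtp, Irgm2 and Oas1a, and they overlapped each other in Bst2 alone. These matches are a description of the letters, not of binding. The stretches below, each 100 bases long, upstream of a start and written 5′ to 3′ on the gene's strand, belong to the called gene Cxcl10, to 3 GTPase genes with high knockout means, and to Isg15 and Ifit1, which had folds of opposite sign. Capitals mark the ISRE and GAS matches.
Cxcl10: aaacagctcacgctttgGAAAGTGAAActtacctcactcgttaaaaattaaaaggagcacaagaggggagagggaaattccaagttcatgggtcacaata
Igtp: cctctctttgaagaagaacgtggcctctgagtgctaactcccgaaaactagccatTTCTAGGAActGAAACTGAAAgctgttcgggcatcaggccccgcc
Irgm2: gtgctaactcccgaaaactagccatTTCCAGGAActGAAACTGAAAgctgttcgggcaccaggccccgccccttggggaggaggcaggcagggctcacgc
Irgm1: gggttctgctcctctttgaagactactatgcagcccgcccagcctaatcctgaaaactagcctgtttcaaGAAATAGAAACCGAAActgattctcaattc
Isg15: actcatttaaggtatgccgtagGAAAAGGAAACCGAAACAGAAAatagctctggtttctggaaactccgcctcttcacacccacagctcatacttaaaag
Ifit1: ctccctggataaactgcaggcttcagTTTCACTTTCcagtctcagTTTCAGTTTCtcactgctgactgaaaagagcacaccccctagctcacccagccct
The Cxcl10 stretch lies at chr5:92349020-92349119 on the minus strand, with its ISRE match beginning at position -213 from the start of the gene. Igtp lies at chr11:58199456-58199555 and Irgm2 at chr11:58214877-58214976, both on the plus strand. Their stretches match at 68 of 70 bases when aligned without gaps, and in each the GAS and ISRE matches stand side by side. Irgm1 lies at chr11:48871421-48871520 on the minus strand, Isg15 at chr4:156200819-156200918 on the minus strand with 3 overlapping ISRE matches, and Ifit1 at chr19:34640759-34640858 on the plus strand with 2 separate ones.

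The wild-type libraries held 40709659, 40798800, 47408552 and 47365062 counts. Over the 38 members the median chi-square per degree of freedom was 0.826 between libraries 1 and 2 and 0.928 between libraries 3 and 4, against 13.2 to 18.2 between a library of one pair and a library of the other. Each pair was therefore averaged and counted as 1 sample, and no SD or test is given over the 2 pair values, which are not labelled groups. Neutrophil markers also separated the pairs, with a summed level over 12 markers of 54392 to 55315 normalised counts in the first pair, 16519 to 16701 in the second, and a knockout mean of 36565. Stem cell markers were all detected, with a sum over 14 markers of 172360 to 213937 in the wild-type libraries and 198315 in the knockout arm. The sum joins differences of both signs, with 9 markers above both pairs in the knockout arm and 3 below, none called, and with Procr 5.41-fold higher (adjusted p = 0.0589) and Hlf 3.63-fold lower (adjusted p = 0.201) by the authors' deposited table. Dnmt3a itself stood at 8229, 8569, 5400 and 5208 normalised counts, with a knockout mean of 8423. The sources used here do not say which exons were deleted, so this whole-gene value is no check of the label.

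In wild-type HSCs every one of the 38 members was detected, with at least 96.4 normalised counts on average over the libraries. Levels per kb of exon, which can be compared between genes, ran from 40.3 for Mx1 to 93330 for B2m, with a median of 816. The median over 17661 features with a wild-type mean of at least 10 normalised counts was 353, and 27 members lay above it. The genes of class I antigen presentation led the set. After them came the tetherin gene Bst2 and the GTPase genes Ifi47, Gbp2, Irgm1 and Igtp, while Mx1, Mx2, Ifit3, Cxcl10 and Oas2 were the lowest.

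**Figure D1:**
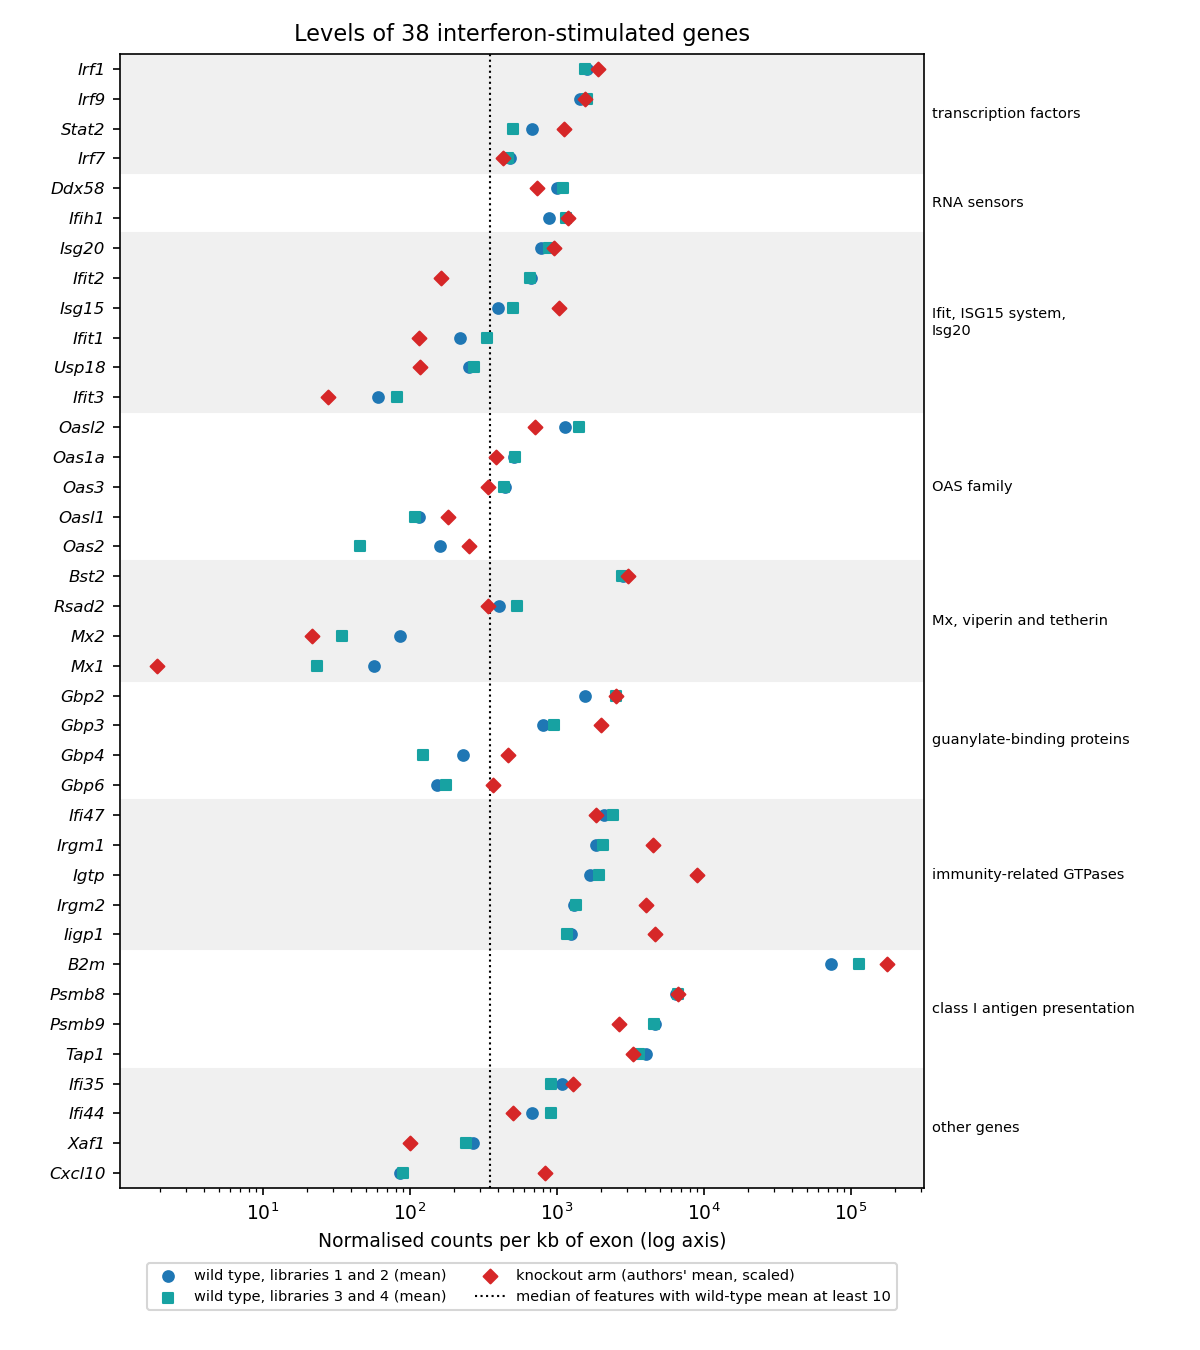
Normalised counts per kb of exon (log axis) for the 38 genes, ordered by role, with the mean of wild-type libraries 1 and 2 (circles), the mean of libraries 3 and 4 (squares) and the authors' scaled knockout mean (diamonds). The dotted line is the median of 353 over features with a wild-type mean of at least 10; B2m stands far to the right and Mx1 falls to 1.89 in the knockout arm.

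Between the 2 pairs of wild-type libraries most members differed little. Their median log2 difference, libraries 3 and 4 minus libraries 1 and 2, was 0.064, against 0.020 over all features at this minimum. Only 3 of 38 members were at least 2-fold apart, where 12.9% of all features were, and these were Oas2, Mx1 and Mx2. All of them were lower in libraries 3 and 4, as were 9.71% of all features by at least 2-fold. The next largest difference was that of Gbp4, at 1046 and 560 normalised counts in the pairs.

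In the arm labelled knockout, Cxcl10 rose and Mx1 fell, and no other member was called at an adjusted p under 0.05 by the authors' deposited table. That is 1 of 38 in each direction, while 3.15% of 21778 tested features were called higher and 3.7% lower, so the share of members called was near the background. The smallest called rise among all features was 5.69-fold and the smallest called fall 5.72-fold, so changes of a smaller size were not called in this comparison. The authors' adjusted p rests on the wild-type libraries that the labels call technical replicates. Whether it covers spread between animals cannot be told here. The median log2 fold change of the members was 0.078 by the authors' deposited table, against -0.10 over all tested features, and 21 of 38 were positive against 45.9% of all. Over the 9256 features with at least 500 normalised counts in both arms, however, the median was 0.11 and 55.3% were positive. Centred on those features the members' median turned to -0.028. By size alone, 10 members had a log2 fold change of at least 1 and 7 of at most -1 by the authors' deposited table, where 15.6% and 21.8% of all features did. The 10 included 3 of 4 guanylate-binding proteins and 4 of 5 immunity-related GTPases, and the 7 included all 3 Ifit genes. The knockout mean lay above all 4 wild-type libraries for 19 members, below all of them for 17 and within their range for Irf9 and Psmb8. Over the 17661 features with a wild-type mean of at least 10 the shares were 35.9% above and 42.4% below. A mean outside the narrow range of these 4 libraries is thus the usual case and is given for each gene only as a description. In bulk RNA, fewer cells of a type and less RNA per cell cannot be told apart.

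**Figure D2:**
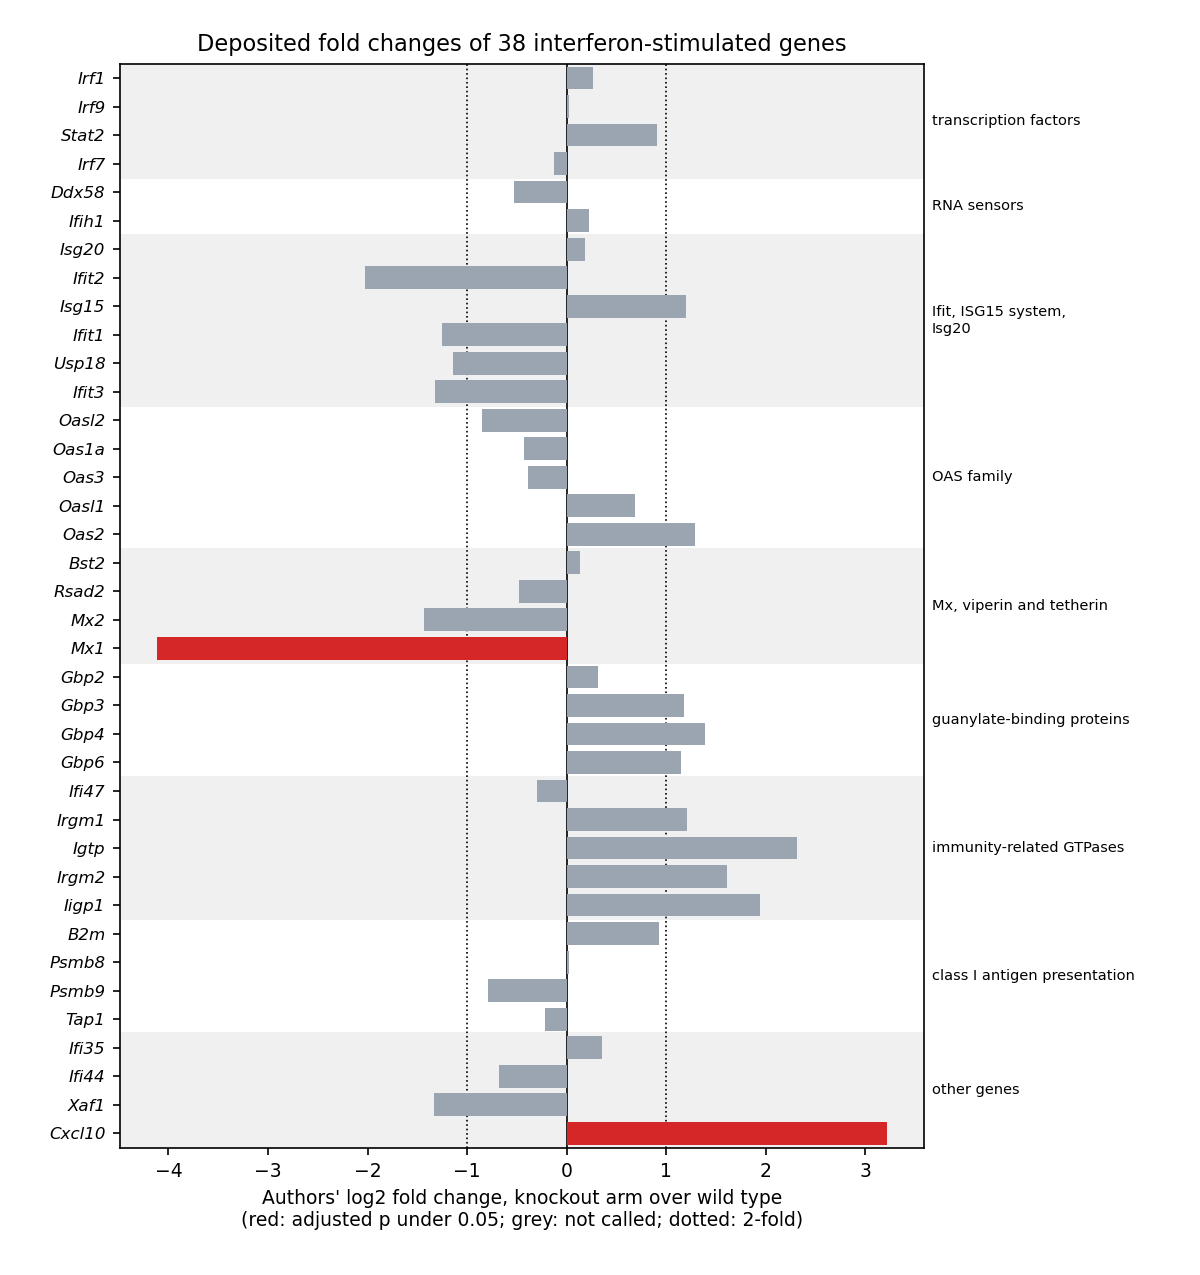
The authors' log2 fold change of the knockout arm over wild type for the 38 genes, ordered by role, with dotted lines at 2-fold in either direction. Red bars are the genes with an adjusted p under 0.05, Cxcl10 at 3.22 and Mx1 at -4.12; grey bars were not called.

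All 4 transcription factors of the set lay above the median level of 353 per kb in wild type, and none was called. Irf1, an early interferon-induced activator, stood at 5382, 5418, 5321 and 5140 normalised counts with a knockout mean of 6382, and Irf9, the DNA-binding partner of Stat2, at 3811, 3847, 4336 and 4218 with a knockout mean of 4127. For Irf1 the knockout mean lay above all 4 libraries, and for Irf9 it lay within them. Stat2 stood at 2836, 3094, 2265 and 2157 normalised counts, higher in libraries 1 and 2, with a knockout mean of 4865 above all of them. Its log2 fold change was 0.91 with adjusted p = 0.694 by the authors' deposited table. Irf7, the amplifier of type I interferon production, had 857, 921, 860 and 851 normalised counts and a knockout mean of 796.

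Both sensors of viral RNA were expressed at similar levels per kb. Ifih1, which encodes MDA5 and detects long double-stranded RNA, had 4853, 4837, 6353 and 6306 normalised counts and a knockout mean of 6548. Ddx58, which encodes RIG-I and detects RNA with a 5′ triphosphate, had 4812, 4979, 5484 and 5415 and a knockout mean of 3583, below all 4 libraries. Neither was called, with log2 fold changes of 0.23 and -0.53 by the authors' deposited table.

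The Ifit genes, whose products bind foreign RNA and restrict its translation, had lower knockout means than every wild-type library, without a call. Ifit2 stood at 2613, 2612, 2606 and 2602 normalised counts, nearly the same in all libraries, and at a knockout mean of 638. Its log2 fold change was -2.03 with adjusted p = 0.144 by the authors' deposited table. Ifit1, at 579 and 885 in the pairs and 305 in the knockout arm, had a log2 fold change of -1.26 by the authors' deposited table, and Ifit3, at 122, 162 and 55.7, had one of -1.33. The 3 genes are neighbours on chromosome 19 (34625184 to 34724499, mm9).

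The ISG15 system went in both directions. Isg15, a ubiquitin-like protein that is attached to other proteins, had 327, 275, 401 and 359 normalised counts and a knockout mean of 780, above all libraries, with a log2 fold change of 1.20 and adjusted p = 0.531 by the authors' deposited table. Usp18, the protease that removes Isg15 and also damps type I interferon signalling at the receptor, had 442 and 478 in the pairs and a knockout mean of 207, with a log2 fold change of -1.15 by the authors' deposited table. Isg20, an exonuclease that degrades single-stranded RNA, had 936, 885, 1089 and 985 normalised counts and a knockout mean of 1105. None of these genes was called.

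The OAS genes encode 2′-5′ oligoadenylate synthetases, which answer double-stranded RNA by activating the nuclease RNase L, and relatives without that activity. Oasl2 stood at 3547, 3558, 4558 and 4320 normalised counts with a knockout mean of 2220, Oas3 at 2015, 2182, 2119 and 1973 with 1589, and Oas1a at 963, 967, 976 and 982 with 719. For all of these the knockout mean lay below the lowest library, and none was called. Oas2 was the member that differed most between the wild-type pairs, at 600 and 631 normalised counts in the first pair and 168 and 187 in the second. Its knockout mean of 971 exceeded both, by 1.58-fold over the first pair and by 5.47-fold over the second, and the log2 fold change of 1.29 was not called, with adjusted p = 0.476 by the authors' deposited table. Oas2, Oas3 and Oas1a lie within 1 cluster on chromosome 5 (121180342 to 121357534, mm9), so neighbours in it differed in sign, with log2 fold changes from -0.43 to 1.29 by the authors' deposited table. Oasl1 had 245 and 229 in the pairs and 382 in the knockout arm.

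Mx1 fell. This dynamin-like GTPase against influenza viruses is known to carry a disabling deletion in C57BL/6 and most other laboratory strains. Mx1 (chromosome 16, 97668642 to 97684513, mm9) stood at 179 and 161 normalised counts in the first pair, at 72.5 and 64.8 in the second, and at 5.60 in the knockout arm. The knockout mean was 30.3-fold below the first pair and 12.3-fold below the second. The authors' deposited table gives a 17.4-fold fall with an adjusted p of 0.00118. Mx2, its neighbour and an antiviral GTPase of related structure, had 199, 211, 89.7 and 77.9 normalised counts and a knockout mean of 51.7, the same order of the 3 values as Mx1. Its log2 fold change of -1.43 was not called, with adjusted p = 0.408 by the authors' deposited table.

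Some markers of mature cell types had the same order of the 3 values as Mx1, highest in the first pair and lowest in the knockout arm. Of the 17661 features with a wild-type mean of at least 10, 21.7% had this order. The marker counts have no such minimum. The order held for 7 of 12 monocyte and macrophage markers, 8 of 10 erythroid, 4 of 8 B cell and 4 of 9 megakaryocyte. It also held for 3 of 10 dendritic cell, 3 of 11 T and NK cell and 0 of 12 neutrophil markers. The summed level had this order in none of these lists. For erythroid markers the sum was 45205 and 58486 normalised counts in the pairs and 20233 in the knockout arm. For B cell markers it was 1134, 1331 and 370. Called lower by the authors' deposited table were 6 of 10 erythroid markers, among them Rhag at 107-fold, and 3 of 9 megakaryocyte markers. So were 2 of 8 B cell, 2 of 10 dendritic cell and 1 of 11 T and NK cell markers. Of all tested features, 3.7% were called lower. The megakaryocyte list also held 2 markers with a knockout mean above both pairs, Vwf and Itgb3. The summed level of that list was 48507 and 60170 normalised counts in the pairs and 80218 in the knockout arm, where Vwf contributes most. C1qa, C1qb and C1qc, complement genes of tissue macrophages, averaged 214, 259 and 223 normalised counts in the first pair, 62.1, 70.5 and 70.1 in the second, and 15.8, 13.2 and 8.24 in the knockout arm, and all of them were called lower by the authors' deposited table. Of the 12 monocyte and macrophage markers, 8 were lower in libraries 3 and 4 than in libraries 1 and 2, 8 had a knockout mean below both pairs, against 45.6% of all features, 2 (Cd68 and Ccr2) had one above both, 4 were called lower by the authors' deposited table and none was at 0. The summed level of the list, to which Lyz2 contributes most, was 12095 to 13336 normalised counts in the wild-type libraries and 12489 in the knockout arm. The part of any of these cell types in the fall of Mx1 was not tested.

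The other antiviral members of this group were not called. Bst2, the tetherin that holds budding virus at the cell surface, had 2148, 2111, 2059 and 2180 normalised counts and a knockout mean of 2324, with a log2 fold change of 0.13 by the authors' deposited table. Rsad2, which encodes viperin, a radical SAM enzyme that makes a chain-terminating nucleotide, had 1536, 1515, 2021 and 2048 and a knockout mean of 1274, below all libraries.

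Guanylate-binding proteins are large GTPases that assemble on the vacuoles of intracellular bacteria and parasites. None of the 4 was called, and all had a knockout mean above every wild-type library. So did 35.9% of features with a wild-type mean of at least 10. Gbp3 stood at 2127, 2084, 2542 and 2508 normalised counts with a knockout mean of 5251, Gbp4 at 1059, 1032, 540 and 579 with 2106, and Gbp6 at 662 and 759 in the pairs with 1571. Their log2 fold changes were 1.18, 1.39 and 1.14 by the authors' deposited table. Gbp2 differed between the pairs, at 3836, 3724, 6147 and 6155 normalised counts, and its knockout mean of 6181 was close to the second pair. Gbp2 with Gbp3 and Gbp4 with Gbp6 lie in separate clusters on chromosomes 3 and 5. Outside the set, the relatives Gbp5, Gbp7 and Gbp9 had log2 fold changes of -1.50, -0.65 and 0.52 by the authors' deposited table. None of these relatives was called, and the family thus went in both directions.

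The immunity-related GTPases, smaller proteins of the same defence that are known as targets of interferon gamma, were not called, though Igtp, Iigp1 and Irgm2 had the highest folds of the set after Cxcl10. Igtp, also named Irgm3, stood at 3450, 3328, 3862 and 3888 normalised counts and at a knockout mean of 18076. The 4.98-fold difference had adjusted p = 0.0772 by the authors' deposited table. Irgm2, its neighbour on chromosome 11 with the matching upstream stretch printed above, had 4568, 4552, 4781 and 4678 and a knockout mean of 14198, or 3.06-fold with adjusted p = 0.306 by the authors' deposited table. Iigp1, an effector that destroys parasite vacuoles, averaged 3888 and 3661 in the pairs with a knockout mean of 14505, and Irgm1, a regulator of the effectors known to be needed for normal HSC maintenance in mice, had 4096, 4117, 4507 and 4595 with 9998. Their log2 fold changes were 1.94 and 1.21 by the authors' deposited table. Ifi47 was the exception, at 7515, 7240, 8640 and 8351 normalised counts with a knockout mean of 6430 below all of them. Its feature is shared with Olfr56 and overlaps Tgtp2.1, and Iigp1 and Irgm1 overlap the unnamed features HAG_018864 and HAG_004816 on the other strand. Reads without strand do not separate these, and the sources used here do not say how reads shared between related GTPase genes were counted.

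**Figure D3:**
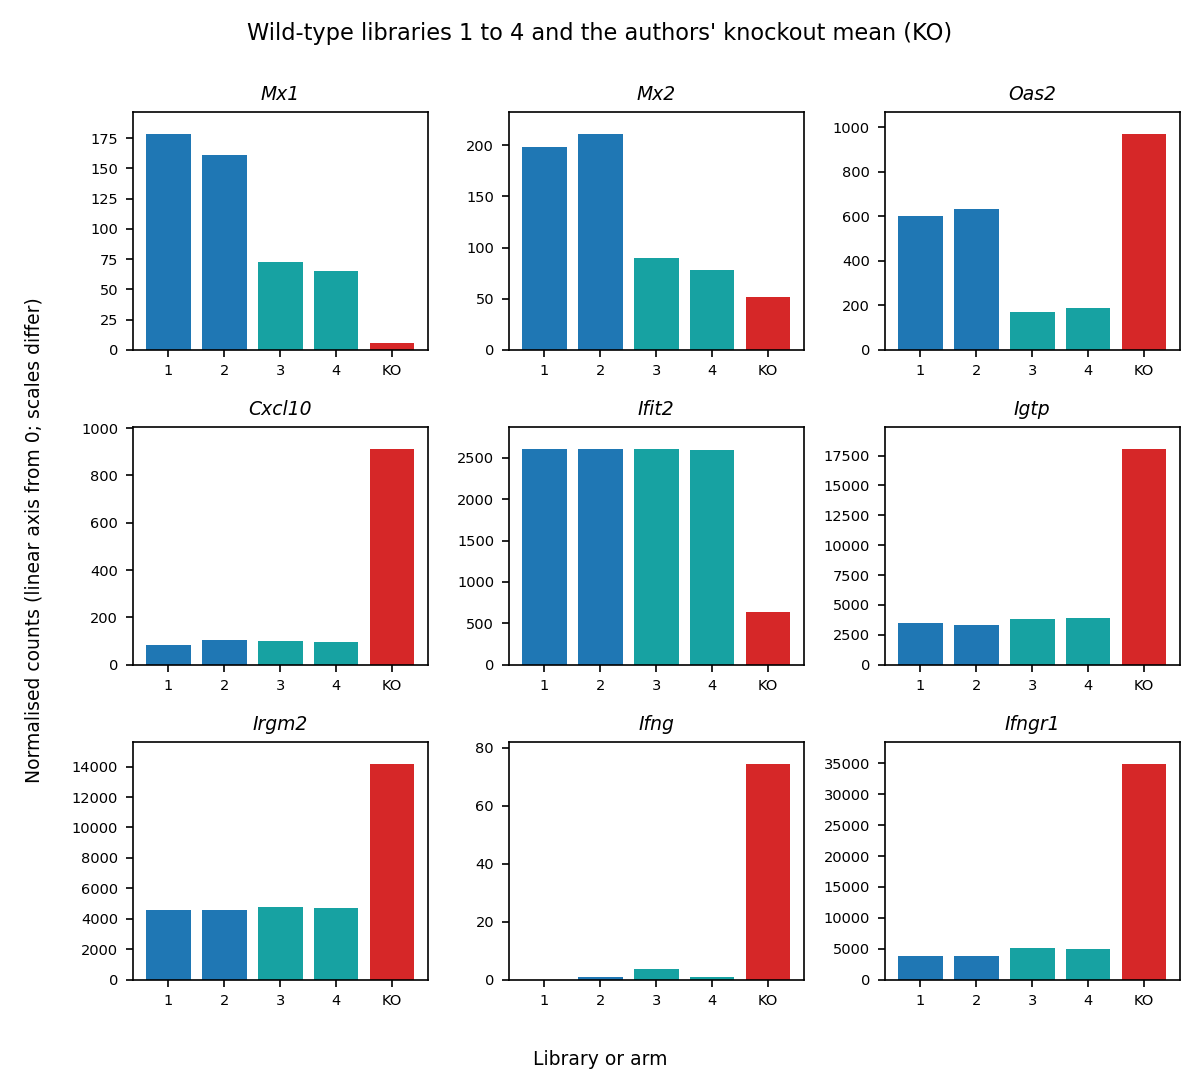
Normalised counts (linear axes from 0, with a different scale in each panel) in wild-type libraries 1 to 4 and the authors' scaled knockout mean for 7 members, the ligand gene Ifng and the receptor gene Ifngr1. Mx1, Mx2 and Oas2 differ between libraries 1 and 2 and libraries 3 and 4, whereas Cxcl10, Ifit2, Igtp and Irgm2 differ little among these libraries. The knockout bar is 1 mean with no spread.

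Class I antigen presentation, by which a cell shows peptides from its own proteins to T cells, was the most abundant group. B2m, the invariant light chain of class I molecules, stood at 61428, 63854, 97122 and 96412 normalised counts with a knockout mean of 151219. The knockout mean was above both pairs, which themselves differed, and the log2 fold change of 0.92 had adjusted p = 0.687 by the authors' deposited table. Psmb8, a catalytic subunit of the immunoproteasome, had 7709, 7968, 8157 and 8027 and a knockout mean of 8085 within that range. Psmb9, another catalytic subunit, had 3593, 3808, 3638 and 3622 and a knockout mean of 2115, and Tap1, a chain of the peptide transporter, had 11788 and 10693 in the pairs and 9664. Psmb9, Tap1 and Psmb8 are adjacent on chromosome 17 (34319044 to 34338399, mm9).

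Cxcl10 rose. It encodes a chemokine that draws activated T and NK cells through the receptor Cxcr3. Cxcl10 (chromosome 5, 92775665 to 92777915, mm9) stood at 83.1, 105, 100 and 97.7 normalised counts in wild type and at 913 in the knockout arm. The wild-type libraries did not separate into pairs for this gene, and the authors' deposited table gives a 9.33-fold rise with an adjusted p of 0.00837. The gene lies within the span of Art3 on the other strand. Summed over the wild-type libraries, Art3 had 279 reads, against 388 for Cxcl10. The knockout mean, which is per library and not a sum, was 142 reads, against 693. Per library, Art3 was thus also higher in the knockout arm. Reads without strand do not separate the genes where they overlap. Of the monocyte and macrophage markers given above, 8 of 12 were lower and 2 higher in the knockout arm than in both pairs, and their part in the rise of Cxcl10 was not tested.

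The remaining members were not called. Ifi35, which partners Nmi, had 1491, 1437, 1254 and 1207 normalised counts with a knockout mean of 1728, and Ifi44, a cytoplasmic antiviral protein, had 2025, 1920, 2691 and 2606 with 1446. Xaf1, a proapoptotic antagonist of XIAP, had 713, 672, 587 and 662 with a knockout mean of 260 and a log2 fold change of -1.33 by the authors' deposited table. Ifi35 thus lay above all 4 libraries in the knockout arm, and Ifi44 and Xaf1 lay below them.

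The other genes of the pathway were taken from 7 lists, with 132 features matched and 115 tested. Of these, 3 were called higher by the authors' deposited table, Ifng, Ifngr1 and Irf4, and 0 lower, beside the background of 3.15% and 3.7%, and their median log2 fold change was 0.22. Among 19 ligand genes, few had reads: all 11 matched Ifna genes had 0 reads in every wild-type library, and Ifnb1 had 2 reads over the 4 libraries and 0 in the knockout mean. Of the Ifna genes only Ifna7 had any reads in the knockout arm, a mean of 0.75, while the relatives Ifnab and Ifnz had 10 and 31 reads over the wild-type libraries. With 3 counts as the floor, 0 reads in a library allows a CPM (counts scaled to library total) of up to 0.0633 to 0.0737, for counting error only.

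Ifng, the gene of interferon gamma, rose. It had 0, 1, 4 and 1 reads in the wild-type libraries and a knockout mean of 56.5 reads, and the authors' deposited table gives a 26.1-fold rise with an adjusted p of 0.000473. The wild-type count is too low for an exact fold, and the knockout level is still small, at 74.5 normalised counts. Ifng is made mainly by T and NK cells. Of 11 markers of those cells, 7 had a knockout mean below both wild-type pairs and 2 (Lck and Cd8a) had one above. Over all features with a wild-type mean of at least 10, 45.6% lay below both pairs. The knockout mean of Cd8a was only 0.75 reads. The summed level was 3358 to 3526 normalised counts in wild type, to which Nkg7 and Klrb1c contribute most, and 1388 in the knockout arm. Cd3e, Ncr1 and Gzma had 0 reads in the knockout mean, and Nkg7 was called lower by the authors' deposited table. Which cells held the Ifng reads was not tested.

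Ifngr1, the ligand-binding chain of the interferon gamma receptor, also rose, from 3790, 3858, 5089 and 4985 normalised counts to a knockout mean of 34949. That is 7.88-fold with adjusted p = 0.0151 by the authors' deposited table, and the knockout mean exceeded the higher pair by 6.94-fold. Ifngr1 overlaps HAG_003592 on the other strand. Its partner chain Ifngr2 had 761 and 841 in the pairs and 1567 in the knockout arm, and the type I receptor chains Ifnar1 and Ifnar2 had knockout means of 8487 and 5211 against 5004 and 5399, and 3274 and 3405. None of those was called, with log2 fold changes of 0.97, 0.71 and 0.64 by the authors' deposited table. Among the kinases, Jak2 had a log2 fold change of 1.25, Jak1 of 0.34 and Tyk2 of -0.21 by the authors' deposited table, and for the shared chain Il10rb and the lambda receptor chain Il28ra it was -0.14 and -1.33. None was called.

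Among the other transcription factors of the pathway, Irf4, which directs plasma cell and activated lymphocyte programmes, rose. It went from 53.6, 40.8, 31.5 and 31.9 normalised counts to 239, which is 5.93-fold with adjusted p = 0.0485 by the authors' deposited table, just under the threshold. Stat3, which answers cytokines of the interleukin 6 family, had a log2 fold change of 2.17 by the authors' deposited table, and Ciita, the switch of class II genes, had -1.62. Neither was called.

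The 12 negative regulators included none that was called, and 11 had a positive log2 fold change by the authors' deposited table, where 45.9% of all tested features and 55.3% of well-counted ones did. Socs3, an inhibitor of Jak kinases, had 487, 509, 3576 and 3722 normalised counts and a knockout mean of 10508. The wild-type pairs were thus 7.33-fold apart, and the adjusted p was 0.0737 by the authors' deposited table. Socs1, the chief inhibitor of interferon gamma signalling, had 237, 248, 236 and 246 normalised counts, close together in all libraries, and a knockout mean of 770, and the phosphatase Ptpn1 had 4323 and 4565 in the pairs with 14072. Their log2 fold changes were 1.66 and 1.66 by the authors' deposited table. Socs1 and Ptpn1 overlap HAG_014640 and HAG_024442 on the other strand, which reads without strand do not separate.

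In the lists of nucleic acid sensing, further effectors and further antigen presentation no gene was called. Mavs, the mitochondrial adaptor of RIG-I and MDA5, had a log2 fold change of -1.64, the RIG-I-like helicase Dhx58 of -0.98 and the ubiquitin ligase Trim25 of 1.45 by the authors' deposited table. Trim25 overlaps HAG_007042 on the other strand, which reads without strand do not separate. Of 44 further effector features, 17 were positive, with Slfn5 at -1.90 and Oas1c at -1.74 by the authors' deposited table. A feature that joins part of Uba7 with other genes stood at 2.23 and the feature of Uba7 alone, which encodes the enzyme that activates Isg15, at 1.34, by the authors' deposited table. Of 21 further antigen presentation features, 16 were positive, with the invariant chain Cd74 at 1.58 and the class I genes H2-Q4 and H2-Q7 at 1.32 and 1.18 by the authors' deposited table. The last 2 belong to a family of near-identical copies, so their counts are uncertain.

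**Figure D4:**
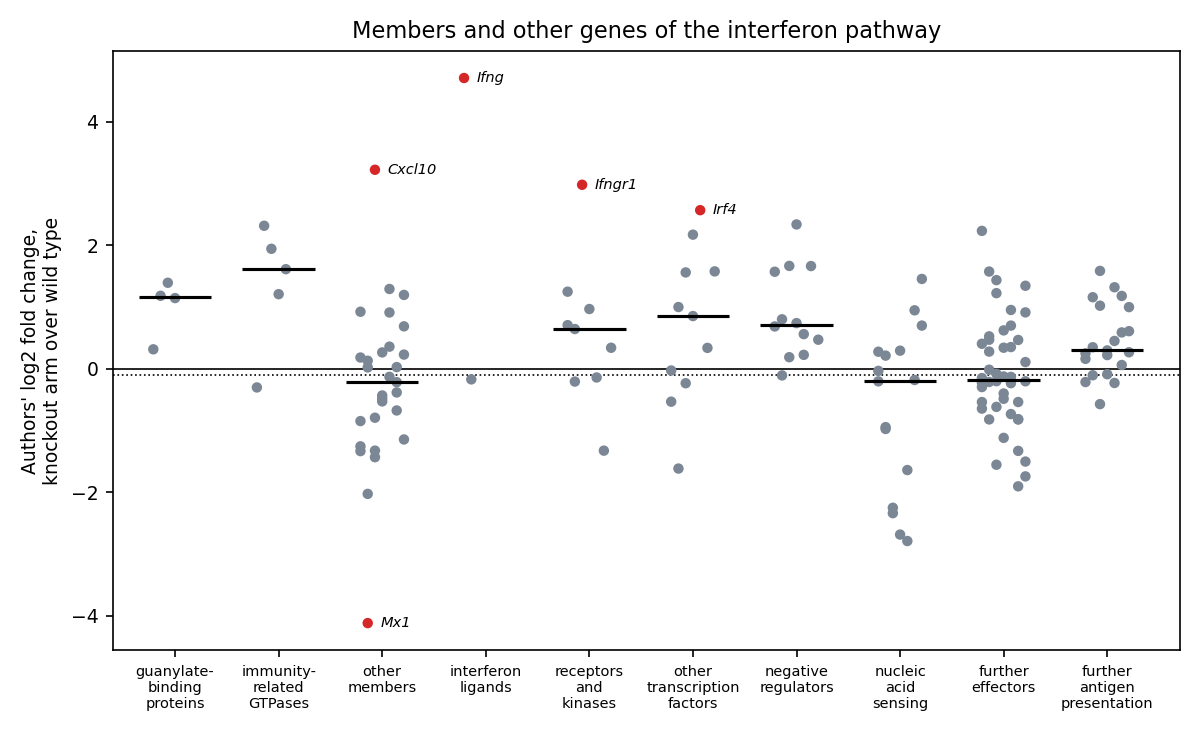
The authors' log2 fold change, knockout arm over wild type, for each tested gene of the 38 members, shown as guanylate-binding proteins, immunity-related GTPases and the others, and of the 7 further lists; bars are medians (none for the 2 ligands tested), red marks an adjusted p under 0.05, and the dotted line is the median of -0.10 over all tested features. The medians of the GTPase groups stand at 1.16 and 1.61, and the called genes are Cxcl10, Mx1, Ifng, Ifngr1 and Irf4.

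Folds were also set beside the upstream letters. The 17 members with an ISRE match had a median log2 fold change of 0.31, from -1.33 to 3.22, and the 14 with none had one of -0.17, from -2.03 to 0.69, by the authors' deposited table. The ranges overlap widely, and Ifit1 and Isg15, with 2 and 3 matches, had log2 fold changes of -1.26 and 1.20 by the authors' deposited table. Usp18, Mx1, Mx2, Oas2, Gbp4, Gbp6 and Iigp1 had no listed promoter and are in neither group. Their log2 fold changes ran from -4.12 for Mx1, which was called, to 1.94 for Iigp1 by the authors' deposited table.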

How the data were processed

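RNA came from RNeasy Micro columns and polyA RNA entered TruSeq libraries, per the labels' protocols; the kit as named does not mark strand. Read counts per feature are the authors' deposited values. Build mm9 and the tool DESeq appear, without roles, in the submitters' processing notes; the sources used here do not name aligner, counter or annotation. A length-scaled signal deposited by the authors was used only for exon lengths, since signal divided by count was constant over libraries in 23395 features (relative tolerance 1e-09). Of 30 columns, 8 are per-library columns of the knockout arm that match no sample given here, and these were not used.

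Normalised counts are deposited counts over median-of-ratios size factors (0.951, 0.955, 1.048 and 1.065; Python 3.11.15, pandas 2.3.3). The deposited log2 fold change equals that of the authors' knockout mean over the normalised wild-type mean plus 0.40 (SD 0.0012 over 8750 features with more than 500 counts in both arms), and the authors' mean was put on the wild-type scale with that offset. For low counts the deposited value lies closer to 0. The deposited p-value is read as adjusted. No genotype test was run, since the labels call the wild-type libraries technical replicates and the knockout arm was used only as a mean. Library agreement was tested with a chi-square of homogeneity per feature with at least 20 reads, checked on simulated data; such values cover counting error only.

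Named were members that are called, 2-fold apart between pairs or among the 3 highest per kb of their role, with the rest in brief; in the pathway lists, called genes, all receptors and kinases, and up to 3 further genes per list with the largest folds among those with a mean of at least 50. Irf7, Gbp6, Iigp1, Irgm2, Ifit1, Ifit3, Usp18, Oasl1 and Tap1 complete the members. Members and lists were chosen with earlier results of these data known. Some genes that this rule names are not reported here. List genes with no matching row included Ifi27 and Etv7. Alternatives were other scalings (edgeR 4.0.16 TMM, library totals), minimum levels, thresholds and wild-type libraries left out.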

Additional observations from a re-analysis of the deposited data

Results flagged for a closer look

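Among 65 genes of the set and the named pathway genes with at least 10 normalised counts in wild type, 1 was flagged. Irf7 stood at 921 normalised counts in wild-type library 2, against 851 to 860 in the other libraries, a gap of 0.864 of the whole range, above the 95% critical value of Dixon's test. Chance alone sets apart about 1 in 20 groups of independent values. These libraries form pairs, so that rate need not hold here and the flag is only a description.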

How the results depend on the processing

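The calls of the authors' deposited table kept their numbers at an adjusted p under 0.01. Minimum levels of 10 and 50 lie below the mean of both arms for Cxcl10 and Mx1, so they could not change the calls. At a threshold of 0.1, 2 members were higher, with Igtp added to Cxcl10. The members' median log2 fold change of 0.078 became 0.0029 against libraries 3 and 4 alone and -0.028 when centred on well-counted features, whose own median was 0.11; without 1 library at a time it ran from 0.070 to 0.094. The number of members at least 2-fold higher was 10 or 11 and of those at least 2-fold lower 6 or 7 under the alternatives run, which were chosen after the values were seen, and the 7 GTPase members among the former were 7 in each. The median difference between library pairs of 0.064 became -0.0050 with library totals and 0.039 to 0.083 without 1 library at a time, and its cause was not tested; 3 members were 2-fold apart in each setting. The median chi-square per degree of freedom over 4 libraries was 7.59, and 11.6 with at least 100 reads. Of 448 values for 56 named genes under 8 alternatives, 7 changed sign, in Irf9, Psmb8, Il10rb and Tyk2, none of them called. No paired analysis was possible because the labels give 1 group. The knockout arm has no spread here, so its means carry no error.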

Other observations

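Tlr7, Tlr8 and Tlr9, endosomal Toll-like receptors that detect nucleic acids taken up by myeloid and plasmacytoid cells, were named after their values were seen. Tlr7, Tlr8 and Tlr9 were scarce in wild type, at 45.7, 27.8 and 37.3 normalised counts in the first pair of libraries and 33.5, 20.8 and 22.7 in the second. Their knockout means were 6.59, 2.97 and 2.97, below all 4 libraries. The log2 fold changes were -2.34, -2.69 and -2.79 by the authors' deposited table, with adjusted p-values of 0.106, 0.0833 and 0.0559, so none was called. Ifi204, a DNA sensor of the same cells, stood at 45.1 and 26.1 in the pairs with a knockout mean of 6.26. Tlr9 overlaps HAG_042700 on the other strand, and strand was not read. Tlr3, of the same list, had a log2 fold change of -0.95 with adjusted p = 0.678 by the authors' deposited table. Of 12 monocyte and macrophage markers, 8 had a knockout mean below both pairs and 2 above. Of 10 dendritic cell markers, 5 were below both and 3 above. Over all features with a wild-type mean of at least 10, 45.6% were below both. The part of these cell types in the values was not tested.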
